A study of Homo sapiens with 10 samples.

Results

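The comparison described here is that of 22RV1 cells treated with SRPIN340 against untreated 22RV1 cells, taken as the libraries whose titles name SRPIN340 or the control. It rests on 4 of the 10 libraries of the series, 2 per group. 22RV1 is an established cell line of castration-resistant prostate cancer. The treated cells were exposed to 20 μM SRPIN340, an inhibitor of the SR protein kinases, for 4 h, and the control cells received no inhibitor. Cells of both groups were given 4-thiouridine for the last 10 min of culture. Whether the control cells received the solvent of the compound is not given in the sources used here. The other groups of the series received Endovion (50 μM), THZ531, or both, and enter here as a shared estimate of the spread and where named.

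SRPK1 and its relatives phosphorylate the serine- and arginine-rich (SR) splicing factors, which bind exons, help assemble the spliceosome and move between the cytoplasm, nuclear speckles and genes according to their phosphorylation. SRPK1 is best known in cancer for the splicing of the VEGFA transcript. In SLAM-seq, 4-thiouridine built into new RNA is alkylated and then read as C in place of T, so that reads with a T>C conversion come from RNA transcribed during the labelling.

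The libraries were made from the 3′ ends of mRNAs, so each gene is measured at its 3′ end and not along its exons. Reads that the files count as T>C reads are called nascent RNA, all reads total RNA, and the portion of T>C reads among all reads the labelled share. The rule behind the T>C read column is not given in the sources used here, and in 6627 to 7822 intervals of a library the files list fewer conversions than T>C reads. The control libraries held 1551146 and 1304438 T>C reads on genes, and the SRPIN340 libraries 1449021 and 1525712. The read counts below are raw, and the control replicate 2 library was the shallowest of the 4. Summed over genes, 5.66% ± 0.0435 (SD, n = 2) of the reads of control cells were labelled and 5.33% ± 0.350 (SD, n = 2) of those of SRPIN340 cells (two-sided exact permutation p = 0.333, which is the lowest value this design can reach). No library without label was analysed here, so the share of T>C reads that arises without 4-thiouridine is not known. All 10 markers of prostate luminal cells were detected in each of the 4 libraries, at a summed 1926 to 1977 RPM (reads scaled to the library's total on genes). Markers of basal epithelium, stroma, endothelium and immune cells summed to at most 3.54 RPM in any of them, and neuroendocrine markers to 21.7 to 26.4 RPM.

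T>C reads were tested in 9946 genes and total reads in 14689 genes with edgeR's quasi-likelihood test, and a gene is called risen or fallen at a Benjamini-Hochberg adjusted p under 0.05. Log2 fold changes are those of SRPIN340 over control and carry their standard error (SE). In nascent RNA 84 genes rose, 0.845% of those tested, and 19 fell, 0.191%. In total RNA 267 genes rose, 1.82%, and 21 fell, 0.143%. At an unadjusted p under 0.05 the counts were 624 and 411 in nascent RNA, and 2067 and 765 in total RNA. Of the 84 genes that rose in nascent RNA 16 also rose in total RNA, and of the 19 that fell 5 also fell.

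These counts depended on single libraries. Without control replicate 1 the risen genes numbered 172 in nascent and 1248 in total RNA, and without control replicate 2 they numbered 10 and 7. Without SRPIN340 replicate 2 they numbered 18 and 3, against 98 and 223 without SRPIN340 replicate 1. Of 84 gene results named below by a fixed rule, 4 kept their call under every alternative tried (MNAT1 in nascent RNA and SLC7A11, PDK4 and IRS2 in total RNA). The control libraries differed from each other along the direction of the calls. Of the 84 genes that rose in nascent RNA 75 were higher in control replicate 1 than in control replicate 2, with a median log2 ratio of 0.73 between those libraries, compared with 0.07 over all genes tested. Among the 267 that rose in total RNA 251 were higher in control replicate 1, at a median of 0.40 against 0.04. The difference also followed the base composition of the reads. When genes were ranked by covered T positions per read, the median log2 fold change in total RNA went from -0.16 in the lowest of 5 equal groups to 0.26 in the highest, and the median log2 ratio of the control libraries from -0.06 to 0.175. The group richest in T held 153 of the 267 risen genes and the poorest 8. With each library corrected for this T content, 75 genes rose in nascent RNA, 69 of them shared with the 84, and 167 rose in total RNA, 142 of them shared with the 267. The part of base composition and of the control libraries in single genes was not tested further.

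**Figure D1:**
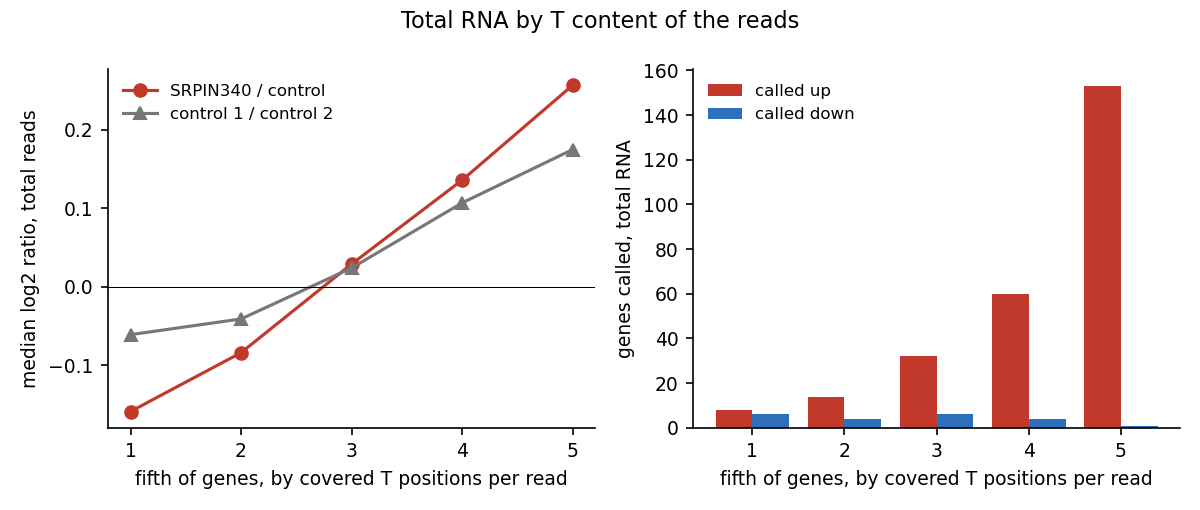
Total RNA in 5 groups of genes ranked by covered T positions per read (x axis, group 5 has most). The left panel gives the median log2 ratio of SRPIN340 over control (circles) and of control replicate 1 over control replicate 2 (triangles), which rise together from -0.16 to 0.26 and from -0.06 to 0.175. The right panel counts genes called up and down, with 153 of 267 risen genes in group 5.

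The genes with the smallest p among those that rose in nascent RNA code for proteins of varied function. Genes named by the smallest p had to show no overlap between the groups in that readout, so this was fixed in advance. PDGFB, a chain of the platelet-derived growth factor, had 34 and 19 T>C reads in the control libraries and 103 and 199 with SRPIN340. Its total reads went from 412 and 324 to 1242 and 3346. In total reads, where this was not required, both SRPIN340 libraries also lay above both control libraries. The log2 fold change of nascent RNA was 2.37 (SE 0.327, adjusted p = 5.85e-06). In total RNA the estimate was as large, at 2.43, but it did not pass the test (SE 0.526, adjusted p = 0.0891). SLC7A11, the cystine and glutamate exchanger of the plasma membrane, had 152 and 138 T>C reads in the control libraries against 347 and 425 after treatment. Its total reads were 3500 and 2375 against 6807 and 9044. The gene rose in nascent RNA by 1.27 (SE 0.185, adjusted p = 1.66e-05) and in total RNA by 1.27 (SE 0.131, adjusted p = 0.00059) on the log2 scale. Its control libraries were close to each other in nascent RNA once depth is taken into account, and its rise in total RNA was called under each of the 12 alternatives, with log2 fold changes of 1.02 to 1.44. An interval of SLC7A11 is shared with a neighbouring gene, so some of its reads may belong to that gene.

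The other named genes are given by their roles, which is an order for reading and not a tested grouping. PABPC4, a cytoplasmic poly(A)-binding protein, had 128 and 46 T>C reads in the control libraries against 261 and 245 with SRPIN340, a log2 fold change of 1.44 (SE 0.234, adjusted p = 0.000159). SRP9, a subunit of the signal recognition particle, went from 149 and 99 to 265 and 382 (1.25, SE 0.206, adjusted p = 0.000183). SELENOF, a selenoprotein of the endoplasmic reticulum, went from 179 and 101 to 305 and 365 (1.14, SE 0.204, adjusted p = 0.000609). In these 3 genes control replicate 2 was the lowest of the 4 libraries.

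Further named genes code for enzymes and mitochondrial proteins. SLC25A5, which exchanges ADP and ATP across the inner mitochondrial membrane, had 480 and 266 T>C reads in the control libraries against 612 and 913 with SRPIN340, a log2 fold change of 0.91 (SE 0.166, adjusted p = 0.000784). ALDH6A1, an enzyme of valine breakdown, had 400 and 201 against 573 and 688 (0.96, SE 0.177, adjusted p = 0.000804). MRPL16, a protein of the mitochondrial ribosome, had 11 and 4 against 31 and 75 (2.66, SE 0.484, adjusted p = 0.000784). The lipid kinase gene PIP4K2C rose by 1.65 (SE 0.245, adjusted p = 1.95e-05), from 89 and 44 to 204 and 250 T>C reads. All 4 had fewer reads in control replicate 2 than in replicate 1.

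The remaining ones include genes of ubiquitin transfer and of cell division. RNF146, a ubiquitin ligase that recognises poly(ADP-ribose), had 9 and 1 T>C reads in the control libraries against 31 and 68 with SRPIN340 (3.15, SE 0.581, adjusted p = 0.000804). FBXL16, an F-box protein, had 54 and 23 in control cells, with both treated libraries above them (2.11, SE 0.347, adjusted p = 0.000804), and TRAF7, also a ubiquitin ligase, 190 and 133 against 327 and 457 (1.15, SE 0.194, adjusted p = 0.000242). PRC1, which cross-links microtubules of the central spindle, had 39 and 18 against 83 and 153 (1.92, SE 0.324, adjusted p = 0.000242). Intervals of FBXL16, TRAF7 and PRC1 are shared with another gene. Of the 15 risen genes named by the smallest p, MNAT1, PDGFB, SLC7A11, PIP4K2C, SRP9 and TRAF7 were still called without control replicate 2, where the highest adjusted p among the 15 was 0.19. Without SRPIN340 replicate 2, 10 of the 15 were called, with a highest adjusted p of 0.196. All 15 were called without control replicate 1, without SRPIN340 replicate 1 and with the T content correction.

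**Figure D2:**
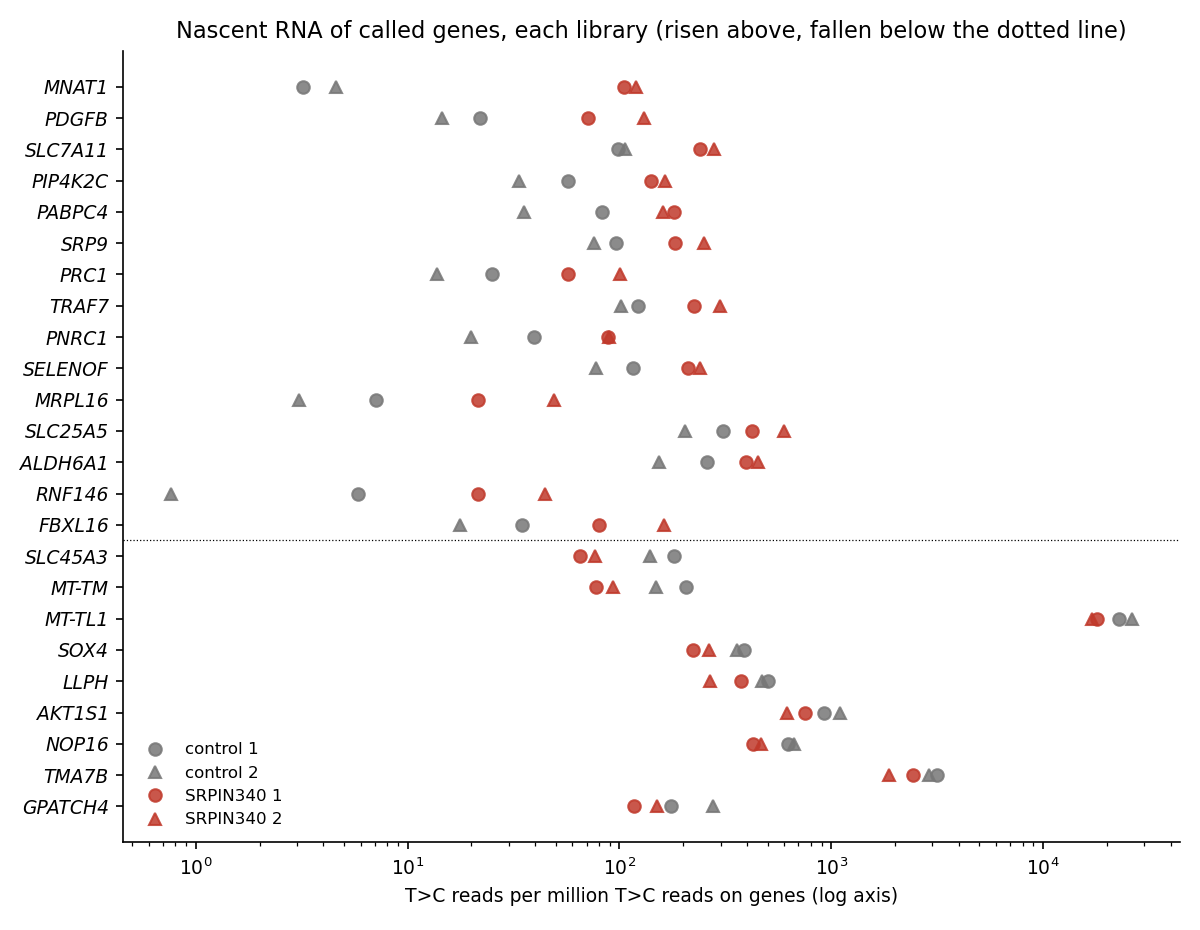
T>C reads relative to depth (RPM, x axis, log scale) of the 15 risen genes with the smallest p in nascent RNA and of 9 of the fallen genes (y axis), 1 point per library. SRPIN340 libraries (red) lie above both control libraries (grey) in the upper block and below both in the lower, as the rule for naming these genes required. MNAT1 shows the widest gap, with 5 and 6 T>C reads without treatment and 153 and 182 with SRPIN340, and control replicate 2 is below control replicate 1 in 13 of the 15 risen genes.

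MNAT1, a subunit of the CDK-activating kinase of the general transcription factor TFIIH, had the smallest p of all genes. It lies at chr14:60734742-60969965 (hg38) and was measured over an interval at its 3′ end. Its T>C reads were 5 and 6 in control cells and 153 and 182 with SRPIN340, out of 185 and 54 reads and 272 and 517 reads, a log2 fold change of 4.75 in nascent RNA (SE 0.373, adjusted p = 1.48e-14). Its total reads scaled to depth did not overlap between the groups either but were not called (1.57, SE 0.675, adjusted p = 0.282). The labelled share was thus 2.70% (95% Wilson interval 1.16 to 6.17%) and 11.1% (5.19 to 22.2%) in control cells, and 56.2% (50.3 to 62%) and 35.2% (31.2 to 39.4%) with SRPIN340. These intervals cover counting error only. This is far above the 5.58% and 5.09% over all genes tested in the same SRPIN340 libraries. HMGB2, a chromatin protein of the high mobility group that was chosen after its values were seen, had the same form, with 193 and 68 T>C reads without treatment and 3719 and 6573 with SRPIN340. Its labelled share was 4.25% (3.70 to 4.87%) and 5.22% (4.14 to 6.57%) against 42.9% (41.8 to 43.9%) and 28.9% (28.3 to 29.5%), and its log2 fold change in nascent RNA was 5.19 (SE 0.543, adjusted p = 0.0215). In both genes the high share was present in every treated library of the series, whatever the agent. MNAT1 had 159 and 158 T>C reads with THZ531, 133 and 141 with Endovion, and 136 and 115 with both. HMGB2 had 4607 and 5109, 4817 and 4223, and 3700 and 3723. Listed conversions per T>C read were 1.01 to 1.07 in the treated libraries for MNAT1 and 1.04 to 1.06 for HMGB2. This ratio is hard to read, since it was 0.667 for MNAT1 in control replicate 2 and 0.958 to 0.997 over all genes tested in the treated libraries, below 1 conversion for each T>C read. A conversion at a fixed position and conversions spread over the interval cannot be told apart in the deposited counts, and the source of the difference was not tested.

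Fewer genes fell in nascent RNA, and their changes were smaller. SLC45A3, a transporter known as a marker of prostate luminal cells, had 280 and 181 T>C reads in the control libraries against 94 and 117 with SRPIN340, a log2 fold change of -1.25 (SE 0.243, adjusted p = 0.00121). Its total reads were 2888 and 2123 against 1312 and 1451 (-1.02, SE 0.211, adjusted p = 0.0411). In total RNA this call was lost when any of the 4 libraries was left out. SLC45A3 was named in both readouts, which required that the groups did not overlap. SOX4, a transcription factor of progenitor cells, had 600 and 466 T>C reads in the control libraries against 323 and 403 with SRPIN340 (-0.69, SE 0.163, adjusted p = 0.0152).

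The other fallen genes named here changed by less than SLC45A3. NOP16, a nucleolar protein of ribosome assembly, had 965 and 868 T>C reads in the control libraries against 617 and 713 with SRPIN340, a log2 fold change of -0.61 (SE 0.151, adjusted p = 0.0235), while its total reads gave -0.05 (SE 0.123, adjusted p = 0.88). GPATCH4, also nucleolar, had 273 and 361 against 169 and 229 (-0.85, SE 0.213, adjusted p = 0.0262), and LLPH had 780 and 613 against 541 and 408 (-0.68, SE 0.164, adjusted p = 0.0181). AKT1S1, an inhibitory subunit of the mTOR complex that AKT phosphorylates, had 1436 and 1439 against 1088 and 943 (-0.65, SE 0.159, adjusted p = 0.0215). TMA7B had 4896 and 3768 against 3531 and 2864 (-0.56, SE 0.141, adjusted p = 0.0252). SLC45A3 and the mitochondrial MT-TM remained called without control replicate 2 or SRPIN340 replicate 2. SOX4, LLPH, AKT1S1, NOP16, TMA7B, GPATCH4 and MT-TL1 did not, with adjusted p up to 0.712 and 0.657. With the T content correction SLC45A3 and MT-TM were called and these other genes were not.

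In total RNA the smallest p values belonged to SLC7A11, IRS2 and PDK4. IRS2, the adaptor of the insulin receptor, had 4768 and 3541 reads in control cells and 8092 and 9604 with SRPIN340, a log2 fold change of 0.93 (SE 0.105, adjusted p = 0.001). PDK4, the kinase that switches off pyruvate dehydrogenase, had 336 and 301 reads against 925 and 1152 (1.53, SE 0.194, adjusted p = 0.00319). Its T>C reads were 16 and 4 against 50 and 92 (2.69, SE 0.502, adjusted p = 0.000856). SLC7A11, IRS2 and PDK4 were called in total RNA under each of the 12 alternatives, and these were the only risen genes that the fit of the 4 libraries alone called.

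Other named genes of total RNA rose by similar amounts. SLC30A1, which exports zinc from the cytoplasm, had 558 and 347 reads in control cells and 1031 and 1333 with SRPIN340 (1.23, SE 0.183, adjusted p = 0.0099). C9orf72 had 159 and 110 against 365 and 576 (1.63, SE 0.216, adjusted p = 0.00419), BRD1, a bromodomain protein of histone acetyltransferase complexes, 460 and 256 against 854 and 1120 (1.31, SE 0.193, adjusted p = 0.0099), and CYSTM1 356 and 236 against 693 and 898 (1.27, SE 0.191, adjusted p = 0.0099). A lack of overlap between the groups was a condition for naming these genes. Without control replicate 2 and without SRPIN340 replicate 2, SLC7A11, PDK4 and IRS2 were called of the 8 named risen genes, and the highest adjusted p was 0.127 and 0.105.

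Among the other genes that fell in total RNA were IGSF9, IMP3 and SNORA57. IGSF9, a cell surface protein of the immunoglobulin superfamily, had 3493 and 3492 reads in control cells and 2473 and 2588 with SRPIN340 (-0.64, SE 0.139, adjusted p = 0.0354). IMP3, a protein of the U3 small nucleolar particle, had 11901 and 11738 against 8189 and 9666 (-0.58, SE 0.130, adjusted p = 0.0377), and its interval is shared with another gene. SNORA57, a small nucleolar RNA, had 203 and 234 against 79 and 114 (-1.37, SE 0.251, adjusted p = 0.0208). In IGSF9 and IMP3 the control libraries were nearly equal in raw reads, and no library of the treated group reached them. None of the 3 was called without control replicate 2 (adjusted p up to 0.287) or without SRPIN340 replicate 2 (adjusted p up to 0.343), and all 3 were called with the T content correction.

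**Figure D3:**
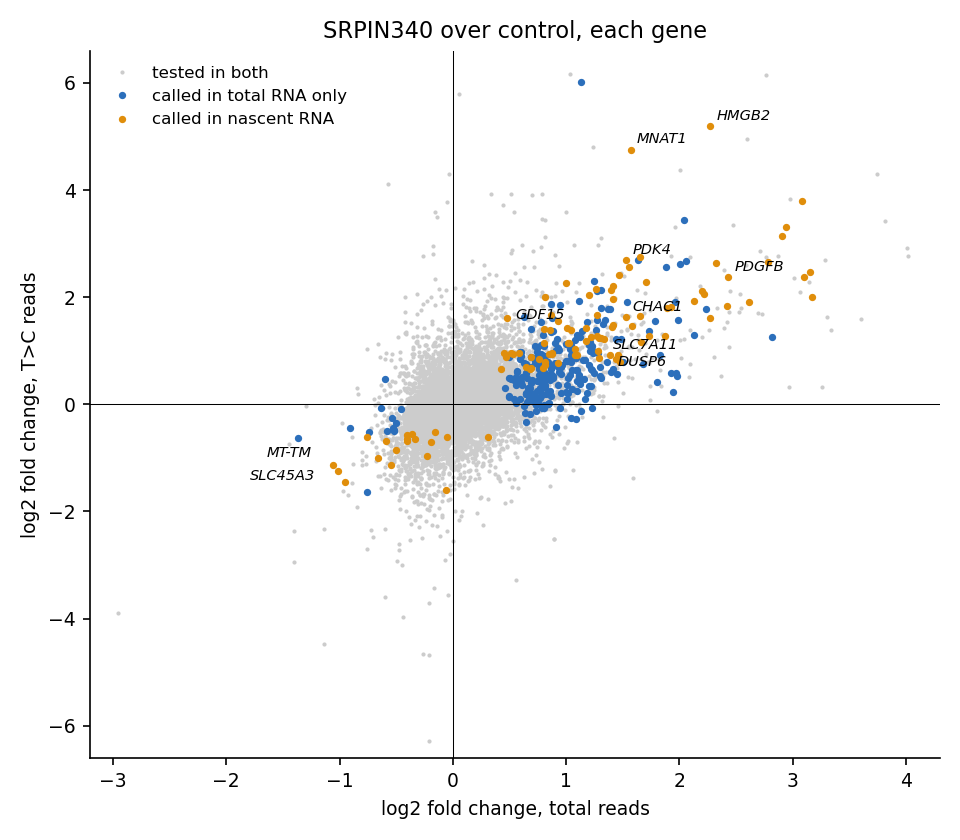
Log2 fold change of SRPIN340 over control in total reads (x axis) and T>C reads (y axis) for the 9946 genes tested in both. Genes called in nascent RNA are orange, those called in total RNA alone blue, and the rest grey. MNAT1 and HMGB2 lie above the other labelled genes, at 4.75 and 5.19 in nascent RNA, and SLC45A3 and MT-TM lie at the lower left.

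Gene lists were described by their called members and by the median log2 fold change, which over all genes tested was -0.01 in nascent and 0.03 in total RNA. Targets of ATF4, the transcription factor of the integrated stress response that raises amino acid uptake and synthesis, had medians of 0.19 in nascent RNA (48 genes) and 0.31 in total RNA (51 genes). Of these members 3 rose in nascent and 6 in total RNA, where 0.845% and 1.82% of all genes rose. None fell, where 0.191% and 0.143% of all genes fell. In total RNA 40 of the 51 had an estimate above 0, as had 7883 of all 14689 genes. CHAC1, which degrades glutathione, had 43 and 25 T>C reads in the control libraries against 107 and 122 with SRPIN340, a log2 fold change of 1.63 (SE 0.334, adjusted p = 0.00274). CEBPB, a transcription factor that pairs with ATF4, had 783 and 576 T>C reads against 1157 and 1173 (0.65, SE 0.152, adjusted p = 0.0136) and rose in total RNA by 0.68 (SE 0.115, adjusted p = 0.0134). CHAC1 and CEBPB were higher in both treated libraries than in both control libraries, and in nascent RNA neither was called without control replicate 2 (highest adjusted p = 0.233) or without SRPIN340 replicate 2 (0.0951).

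GDF15, a secreted stress cytokine, had 664 and 741 reads in control cells and 1663 and 1742 with SRPIN340 (1.10, SE 0.174, adjusted p = 0.0099). It was one of the few risen genes that were higher in control replicate 2 than in replicate 1 relative to depth. TARS1, the threonyl-tRNA synthetase, had 1577 and 969 against 2449 and 3877 (1.15, SE 0.206, adjusted p = 0.0299). The transcription factor gene ATF3 rose in total RNA by 0.93 (SE 0.192, adjusted p = 0.031) and PSAT1, an enzyme of serine synthesis, by 0.50 (SE 0.119, adjusted p = 0.0425). SLC7A11 belongs to this list too. Of the 6 genes called in total RNA, SLC7A11, CEBPB, GDF15 and TARS1 kept the call with the T content correction, SLC7A11 and GDF15 without control replicate 2, and SLC7A11 without SRPIN340 replicate 2, where the highest adjusted p was 0.27.

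The promoters of the called genes were searched for the C/EBP-ATF element TTGCATCA, which ATF4 binds with a C/EBP partner, on both strands of a window from 250 bases before to 50 bases after the start of each transcript (RefSeq, GRCh38.p14). It was found in 295 of 27305 genes with a promoter, 1.08%, and in 12 of the 43 listed ATF4 targets that had one. Of the genes with a promoter that were tested for nascent RNA, 58 of 7897 held it, 0.734%. Among genes called risen, 1 of 65 with a promoter held it in nascent RNA (1.54%) and 4 of 215 in total RNA (1.86%). The difference between these shares was not tested. These 5 matches are shown because they mark where the called genes and the element meet. Each line gives 30 bases of the gene's strand, 5′ to 3′, with the element in capitals (as its reverse complement in PPP1R15B).
CHAC1, chr15:40953251-40953280, plus strand: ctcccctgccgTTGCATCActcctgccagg
TARS1, chr5:33440956-33440985, plus strand: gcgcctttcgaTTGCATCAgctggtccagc
HERPUD1, chr16:56931955-56931984, plus strand: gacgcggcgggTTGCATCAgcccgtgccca
IARS1, chr9:92293692-92293721, minus strand: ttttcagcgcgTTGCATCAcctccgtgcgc
PPP1R15B, chr1:204412026-204412055, minus strand: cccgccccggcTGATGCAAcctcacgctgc
The element begins 209 bases before the start of CHAC1, 176 before that of HERPUD1, 227 before that of PPP1R15B and 13 before that of IARS1, and at base 3 of a TARS1 transcript. HERPUD1 (a protein of degradation at the endoplasmic reticulum), IARS1 (the isoleucyl-tRNA synthetase) and PPP1R15B (a subunit of the phosphatase that acts on eIF2α), which were chosen for the element after their values were seen, rose in total RNA by 0.59, 0.91 and 1.42, with adjusted p = 0.0336, 0.0234 and 0.0221. In total RNA the fit of the 4 libraries alone called SLC7A11, IRS2 and PDK4 as the only risen genes. HERPUD1, IARS1 and PPP1R15B were therefore not called in that fit. Called ATF4 targets without a match in these windows were ATF3, CEBPB, GDF15 and PSAT1. SLC7A11 has no entry in the promoter table.

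Targets of NRF2, the regulator of the antioxidant response, had medians near that of all genes, -0.07 in nascent RNA (35 genes) and -0.08 in total RNA (41 genes). SLC7A11 and GSR, the glutathione reductase, rose in nascent RNA. GSR had 402 and 201 T>C reads in the control libraries against 479 and 564 (0.68, SE 0.177, adjusted p = 0.035), and with the T content correction its adjusted p was 0.34. In total RNA SLC7A11 rose together with MAFG, a partner of NRF2 on DNA, from 2438 and 1764 to 3916 and 5679 reads (1.02, SE 0.176, adjusted p = 0.0234), and SRXN1, which restores peroxiredoxins (0.64, SE 0.143, adjusted p = 0.0382). An interval of SRXN1 is shared with another gene. Without control replicate 2 MAFG had an adjusted p of 0.321 and SRXN1 of 0.441, and without SRPIN340 replicate 2 of 0.209 and 0.392. No member fell in either readout, where 0.191% of all genes fell in nascent RNA and 0.143% in total RNA. The core of the antioxidant response element, TGACNNNGC, was in neither the MAFG nor the SRXN1 window. It was in 13 of the 34 listed NRF2 targets with a promoter and in 16.1% of all genes with one. Binding was not tested.

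Immediate early genes, which respond to growth factor signalling and stress within minutes, had medians of 0.20 in nascent RNA (50 genes) and 0.37 in total RNA (57 genes). In total RNA 10 of the 57 rose and none fell, where 1.82% of all genes rose and 0.143% fell. In nascent RNA PNRC1 alone rose, 1 of 50, where 0.845% of all genes rose. DUSP6, the phosphatase that limits ERK, had 334 and 198 reads in control cells and 662 and 907 with SRPIN340, a log2 fold change of 1.40 (SE 0.206, adjusted p = 0.0099). EGR1, a zinc finger factor induced by ERK, had 281 and 186 against 596 and 653 (1.27, SE 0.235, adjusted p = 0.0234). KLF4, a Krüppel-like factor, had 139 and 71 against 259 and 426 (1.54, SE 0.279, adjusted p = 0.0226). MCL1, an inhibitor of apoptosis, had 4651 and 2934 against 5954 and 7723 (0.69, SE 0.137, adjusted p = 0.024). In each of these genes the treated libraries were higher than both control libraries. Of the 267 genes that rose in total RNA 246 met this too, with at least 100 reads in both treated libraries.

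The other risen members were ATF3, DUSP1, DUSP4, NR4A2, KLF3 and KLF7. PNRC1, a nuclear receptor coactivator, had 61 and 26 T>C reads against 128 and 136 (1.49, SE 0.259, adjusted p = 0.000397), and its adjusted p was 0.102 without control replicate 2. Control replicate 1 exceeded control replicate 2 in total reads across this list, with a median log2 ratio of 0.22 compared with 0.04 over all genes, and the list's reads were rich in T (a median of 28.87 covered T positions per read against 24.73). None of the 10 was called without control replicate 2 (lowest adjusted p = 0.109), without SRPIN340 replicate 2 (0.105) or in the fit of the 4 libraries alone (0.0606). With the T content correction EGR1, DUSP4, DUSP6, NR4A2, MCL1 and KLF4 kept the call. The AP-1 site TGANTCA was in none of the 7 called members with a promoter. It was in 2 of the 49 list members with a promoter and in 9.37% of all genes with one. Binding was not tested.

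**Figure D4:**
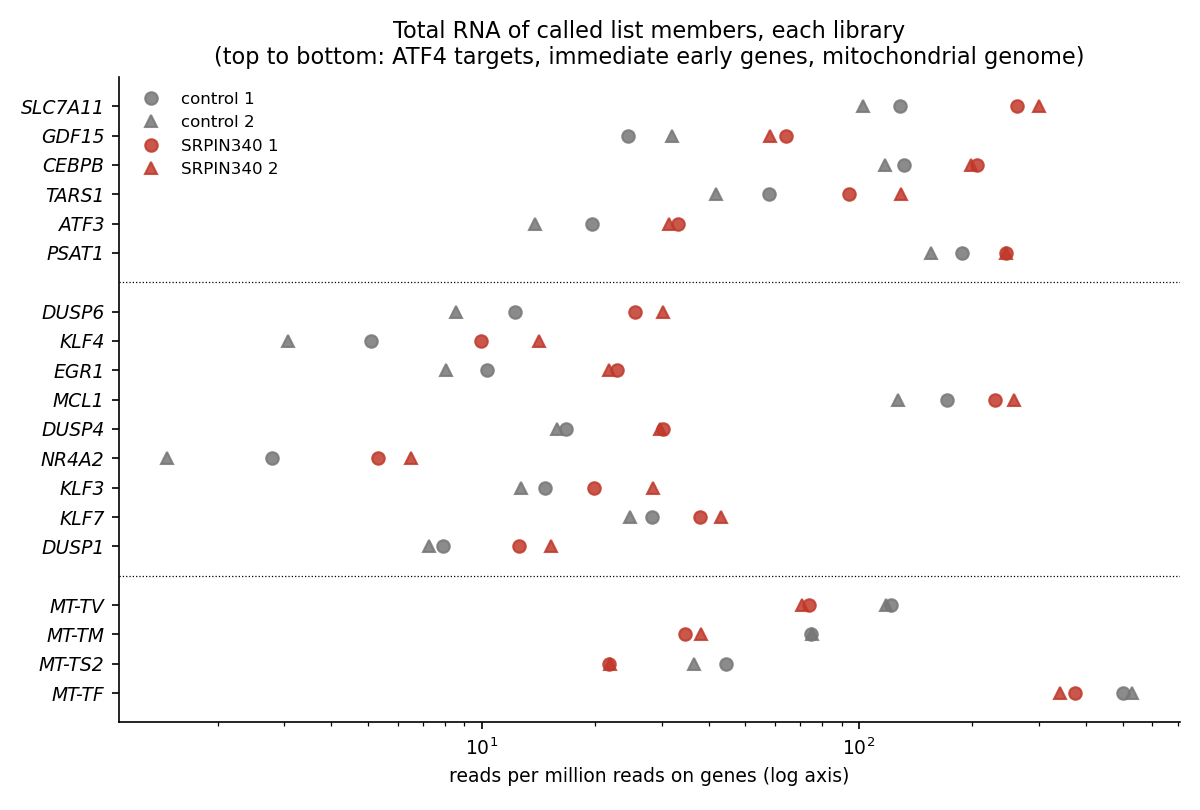
Total RNA in RPM (x axis, log scale) for the members called in total RNA (y axis) of the ATF4 target, immediate early and mitochondrial genome lists, in blocks from top to bottom, 1 point per library. ATF3 belongs to the upper 2 lists and is drawn with the ATF4 targets. The SRPIN340 libraries (red) are above both control libraries (grey) in the upper 2 blocks and below both in the mitochondrial block.

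The kinases and factors of the pathway that SRPIN340 targets were not called at the RNA level. SRPK1 had 1403 and 719 reads in control cells and 1612 and 2108 with SRPIN340 (0.66, SE 0.188, adjusted p = 0.0825), and 89 and 83 T>C reads against 111 and 126 (0.32, SE 0.260, adjusted p = 0.725). SRPK2 had 302 and 250 reads against 318 and 444 (0.29, SE 0.179, adjusted p = 0.397). SRPK3 was near the limit of detection, with 20 and 22 reads against 8 and 22. SRSF1, the SR protein best studied as a substrate of SRPK1, had 5067 and 2659 reads against 6237 and 8724 (0.80, SE 0.196, adjusted p = 0.0632), and 500 and 353 T>C reads against 507 and 492 (0.10, SE 0.163, adjusted p = 0.879). Total reads of SRPK1 and SRSF1 were lowest in control replicate 2 and did not overlap between the groups after scaling, and SRSF1 shares an interval with another gene.

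None of 12 splicing kinases tested in total RNA, nor of 39 SR and speckle proteins, was called in either readout, and their total RNA medians were 0.28 and 0.15. Of all genes 1.82% rose and 0.143% fell in total RNA, and 0.845% rose and 0.191% fell in nascent RNA. At such shares a list of this size can hold no call, so its absence says little about these genes. In nascent RNA the medians were 0.22 over 9 kinases and -0.05 over 38 SR and speckle proteins. With the T content correction the median of the SR and speckle proteins in total RNA was -0.04, below 0, and 2 of them were called as fallen in total RNA and 1 in nascent RNA. Without control replicate 1, 6 of them were called as risen and 2 as fallen in total RNA, and 3 splicing kinases as risen. Of 50 core spliceosome genes SNRPF, an Sm protein, rose in nascent RNA (0.78, SE 0.184, adjusted p = 0.0161), from 387 and 172 to 477 and 555 T>C reads. Its total reads went from 8490 and 2811 to 13174 and 21323, so that control replicate 2 stood well below the other 3 libraries, and its interval is shared with another gene. Among elongation factors AFF4, a scaffold of the super elongation complex, rose in total RNA (0.85, SE 0.185, adjusted p = 0.0411) in addition to the nascent rise of MNAT1. Without control replicate 2 the adjusted p was 0.589 for SNRPF and 0.361 for AFF4, and without SRPIN340 replicate 2 it was 0.206 and 0.267.

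VEGFA, the angiogenic growth factor whose splicing SRPK1 is known to steer, had 1347 and 759 reads in control cells and 1817 and 2037 with SRPIN340. It rose in total RNA by 0.73 (SE 0.167, adjusted p = 0.0418), a call that was lost under 8 of the 12 alternatives, at log2 fold changes of 0.43 to 1.06. Among them the T content correction gave an adjusted p of 0.0579, and the fit without control replicate 2 gave 0.456. Its T>C reads were 75 and 64 against 160 and 100 and were not called (0.78, SE 0.265, adjusted p = 0.177). The splice forms of VEGFA cannot be told apart in 3′ end counts. Of 26 angiogenic growth factors 8 were tested in nascent RNA, where PDGFB rose, and 16 in total RNA, where VEGFA rose. The medians of that list were 0.38 and -0.18, of opposite sign, and without SRPIN340 replicate 2 the median in nascent RNA was -0.15. In the hypoxia list KDM3A, a histone demethylase, rose in both readouts, from 7 and 3 to 37 and 22 T>C reads (2.42, SE 0.571, adjusted p = 0.0152) and by 1.47 in total RNA (SE 0.3, adjusted p = 0.0425). Without control replicate 2 its adjusted p was 0.275 in nascent and 0.329 in total RNA. The median of that list was 0.10 in nascent RNA and -0.06 in total RNA, where it was 0.04 without control replicate 1.

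Androgen signalling was followed through a list of 83 androgen response genes. Of these SLC45A3 fell in both readouts, and no other of 69 members tested in nascent RNA or 79 in total RNA was called. Among all genes 0.191% fell and 0.845% rose in nascent RNA, and 0.143% fell and 1.82% rose in total RNA. The medians of the list were -0.12 in nascent and 0.01 in total RNA, the latter -0.14 with the T content correction.

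**Figure D5:**
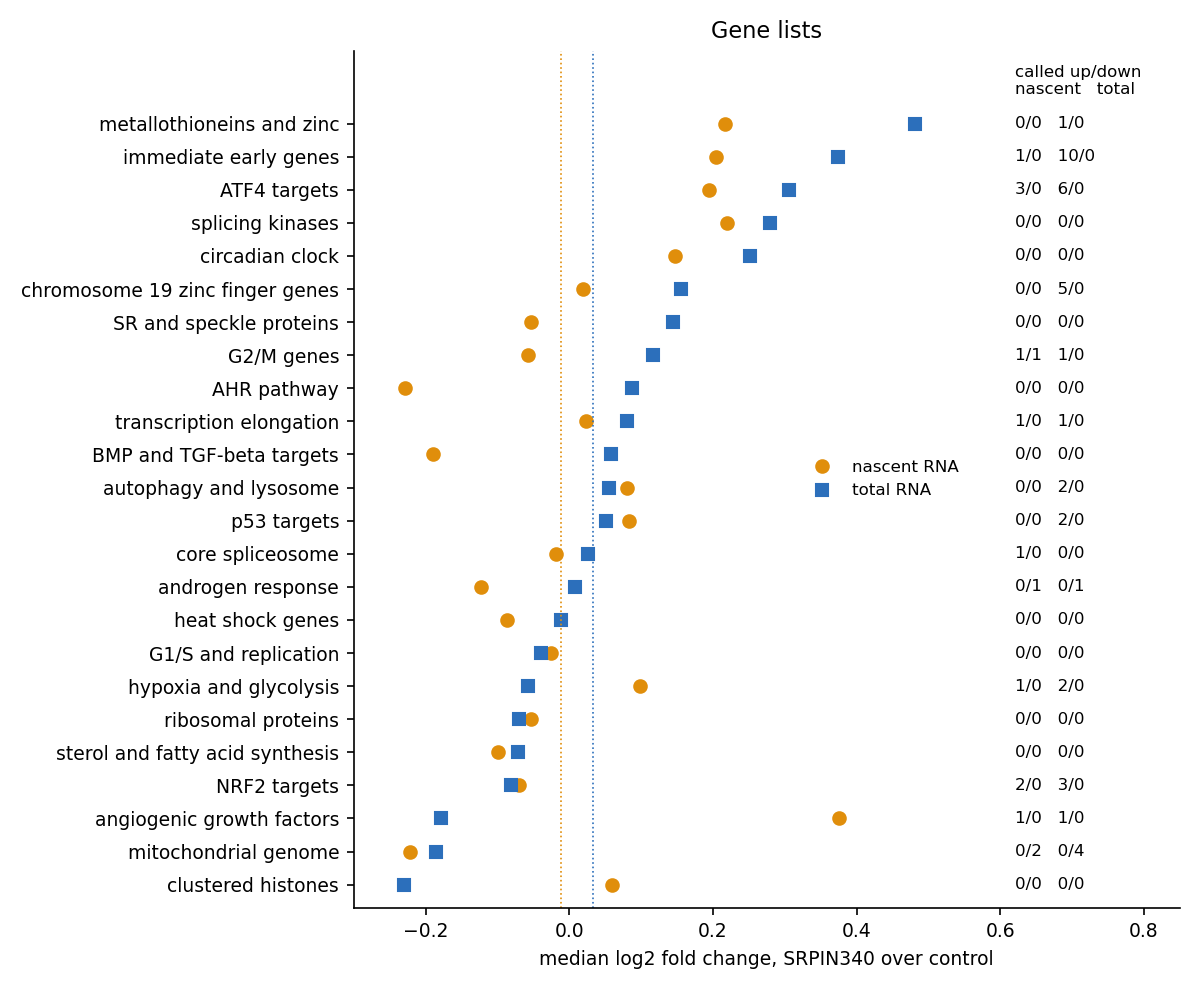
Median log2 fold change of each gene list in nascent (circles) and total RNA (squares), with dotted lines at the medians of all genes tested (-0.01 and 0.03). The numbers at the right are members called up and down in each readout. Immediate early genes (10 up) and ATF4 targets (6 up) have most calls in total RNA, and the mitochondrial genome is the list with more than 1 fallen gene.

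Transcripts of the mitochondrial genome had medians of -0.22 in nascent and -0.19 in total RNA over 16 genes, and the called members were tRNA genes. Of the 16 genes 2 fell in nascent and 4 in total RNA, where 0.191% and 0.143% of all genes fell. MT-TM, the tRNA for methionine, had 321 and 194 T>C reads in the control libraries against 112 and 142 with SRPIN340 (-1.14, SE 0.223, adjusted p = 0.00138), and 2030 and 1738 reads in all against 899 and 1146 (-1.05, SE 0.162, adjusted p = 0.0099). The conversions per 100 covered T of MT-TM did not fall. They were 0.187 and 0.208 in control cells and 0.403 and 0.276 with SRPIN340. MT-TL1, a tRNA for leucine, fell in nascent RNA from 35370 and 34174 to 25915 and 26076 T>C reads (-0.57, SE 0.129, adjusted p = 0.0103). Its reads held 2.18 covered T positions each. Its conversions per 100 covered T were 6.47 and 6.65 in control cells and 5.71 and 5.38 with SRPIN340, against 0.215 to 0.249 over genes in these libraries. The libraries were made from the 3′ ends of mRNAs, and whether reads at these intervals come from the tRNAs themselves was not tested. MT-TV, MT-TS2 and MT-TF fell in total RNA by 0.74, 0.91 and 0.53 on the log2 scale (adjusted p = 0.0099, 0.0099 and 0.0449). The control and treated libraries did not overlap in any of them. This held for all 19 genes fallen in nascent RNA, and for 18 of 21 in total RNA counted with at least 100 reads in both control libraries. The reads of this list held few T positions, a median of 6.63 per read, and with the T content correction its medians were -0.08 and -0.06, with MT-TM called in nascent RNA and MT-TM, MT-TV and MT-TS2 in total RNA. None of the 4 was called in total RNA without SRPIN340 replicate 2 (lowest adjusted p = 0.105).

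At most 1 gene of each cell cycle list was called in either direction of a readout, where 0.845% of all genes rose and 0.191% fell in nascent RNA and 1.82% rose in total RNA. CCNB1, the cyclin of mitotic entry, had 421 and 455 T>C reads in the control libraries against 301 and 295 with SRPIN340 (-0.71, SE 0.182, adjusted p = 0.0311), and PRC1 rose, out of 51 G2/M genes with a median of -0.06 in nascent RNA. KIF18A, a kinesin of chromosome alignment, rose in total RNA (1.12, SE 0.210, adjusted p = 0.0232). None of 46 genes of G1/S and replication was called in nascent RNA, and none of 47 in total RNA. Targets of p53 called in total RNA were GDF15 and CCNG1 (0.74, SE 0.168, adjusted p = 0.041), of 34 tested, with a median of 0.05 (-0.08 with the T content correction). Without control replicate 2 CCNB1, KIF18A and CCNG1 had adjusted p = 0.576, 0.261 and 0.441, and none of the 3 was called without SRPIN340 replicate 2.

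Further lists had few or no calls. Zinc finger genes of chromosome 19 had 5 risen members of 210 in total RNA (ZNF571, ZNF493, ZNF254, ZNF551 and ZNF708), a share close to the 1.82% of all genes, and a median of 0.16, and none of 133 was called in nascent RNA. None of the 5 was called without control replicate 2 (lowest adjusted p = 0.287). In the list of metallothioneins and zinc, with a total RNA median of 0.48 over 10 genes, SLC30A1 was the called member, and 9 of the 10 estimates were above 0. Of 37 autophagy and lysosome genes CTSL, a lysosomal protease (0.80, SE 0.175, adjusted p = 0.0381), and ATG16L1, which guides autophagosome formation (1.09, SE 0.247, adjusted p = 0.0392), rose in total RNA, with adjusted p = 0.374 and 0.441 when control replicate 2 was left out. No gene of the sterol and fatty acid, heat shock, aryl hydrocarbon receptor, circadian, BMP and TGF-beta, ribosomal protein or histone lists was called in either readout. Their medians in total RNA ranged from -0.23 for 18 histone genes, which turned to 0.205 without control replicate 1, to 0.25 for 18 circadian genes. Long non-coding RNAs, of which 1360 were tested in total RNA, had 4 risen genes, 1 fallen gene and a median of -0.01. Of all genes 1.82% rose and 0.143% fell in total RNA.

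The labelled share of a gene, tested as its T>C reads against its unconverted reads relative to the typical gene, rose in 10 genes, 0.101% of 9946, and fell in 9, 0.0905%. OAZ1, the antizyme that limits polyamine synthesis, had a labelled share of 6.45% (6.08 to 6.84%) and 5.12% (4.75 to 5.50%) in control cells and of 9.43% (8.96 to 9.92%) and 9.75% (9.36 to 10.2%) with SRPIN340. The log2 fold change of the share was 0.96 (adjusted p = 8.57e-06), and OAZ1 was called in each of the fits that left out 1 of the 4 libraries. Its share was 9.09% and 10.4% with THZ531 and 9.27% and 9.91% with Endovion, so both control libraries were below every treated library shown. SCARNA9, a guide RNA of Cajal bodies, had 19 and 17 T>C reads of 1313 and 1192 reads in control cells and 52 and 47 of 1071 and 1025 with SRPIN340 (1.93, adjusted p = 0.0138), a call lost without control replicate 2 (adjusted p = 0.108) or either SRPIN340 library. MT-RNR1 (the small mitochondrial rRNA), JTB, NFIC and MNAT1 were the other named genes whose share rose, with adjusted p = 0.0146, 0.018, 0.0381 and 0.0188. Intervals of SCARNA9 and JTB are shared with another gene. The calls of MT-RNR1, JTB and NFIC were lost when any of the 4 libraries was left out, with adjusted p of up to 0.753, 0.62 and 0.783. For MNAT1 the adjusted p was 0.348 and 0.0898 when control replicate 1 or 2 was left out and 0.0822 when SRPIN340 replicate 1 was.

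Of the 6 named genes whose share fell none was called in total RNA, and DNAJC7 was called as fallen in nascent RNA. DNAJC7, a co-chaperone, had 579 and 469 T>C reads in the control libraries against 364 and 393 with SRPIN340, of 3483 and 2199 and of 3502 and 4355 reads (-0.95, adjusted p = 0.00103). An interval of DNAJC7 is shared with another gene. WDR72 had 648 and 378 against 465 and 461 T>C reads, while its reads went from 2215 and 1087 to 2419 and 2930 (-0.98, adjusted p = 0.00103). MCM2, a subunit of the replicative helicase, had 784 and 595 against 667 and 849 T>C reads (-0.68, adjusted p = 0.0297). FH (fumarate hydratase), TMED2 (a cargo receptor of vesicle traffic) and MRPL13 (of the mitochondrial ribosome) were the others named, at -0.90, -0.77 and -1.56. For MRPL13 the fall was not seen in conversions per 100 covered T. These were 0.141 and 0.135 in control cells and 0.168 and 0.0955 with SRPIN340, so the groups overlapped. In the other named genes whose share fell, both SRPIN340 libraries were below both control libraries in this measure. In each of these 6 genes control replicate 2 had the fewest total reads of the 4 libraries. None of the 6 was called without control replicate 2 (lowest adjusted p = 0.0898).

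SRPIN340 and Endovion were used at different doses, 20 μM and 50 μM, so their values are given side by side and the difference between them joins compound and dose. Fitted directly against each other in nascent RNA, 2 genes were higher with SRPIN340, 0.0201% of 9946, and 4 were lower, 0.0402%. T>C reads of WNT7B, a secreted WNT ligand, numbered 33 and 43 without treatment, 29 and 38 with SRPIN340 and 0 in both Endovion libraries, where a count of 0 allows up to 3 (adjusted p = 6.21e-05). IRX3, a homeobox factor, had 637 and 593, 724 and 683, and 314 and 219 T>C reads, with a log2 difference of 1.02 between the compounds (SE 0.176, adjusted p = 0.000782). CYP1A1, a target of the aryl hydrocarbon receptor, had 8 and 8 T>C reads without treatment, 1 and 5 with SRPIN340 and 234 and 207 with Endovion, and CYP1B1 71 and 45, 50 and 58, and 163 and 216. Their log2 differences were -6.53 and -2.24 (adjusted p = 3.02e-16 and 5.25e-07). None of the 4 genes was called for SRPIN340 against control. In CYP1A1, with at most 8 T>C reads in each control and SRPIN340 library, the log2 fold change of SRPIN340 over control was -1.51 (SE 0.696, adjusted p = 0.42).

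In the mitochondrial MT-TM and MT-TL1 the SRPIN340 libraries were instead lower, relative to depth, than the control and Endovion libraries. For MT-TM this was not particular to SRPIN340. With THZ531 it had 147 and 108 T>C reads, of 1576106 and 1023872 on genes, also below both control libraries relative to depth. MT-TM had 112 and 142 T>C reads with SRPIN340 and 189 and 253 with Endovion, a log2 difference of -1.23 (SE 0.225, adjusted p = 0.00207). MT-TL1 had 25915 and 26076 against 34172 and 26865 (-0.62, SE 0.129, adjusted p = 0.0189). For the other genes named above, the direct comparison of the compounds did not pass the test. PDGFB had 103 and 199 T>C reads with SRPIN340 and 139 and 100 with Endovion, SLC7A11 347 and 425 and 404 and 291, and SLC45A3 94 and 117 and 80 and 58. A difference that misses the test does not show that the compounds act alike, and in PDGFB the estimate was -0.06 with an SE of 0.281.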

How the data were processed

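SLAM-seq 3′ end libraries of 22RV1 cells were analysed (5 groups, 2 replicates each). The authors counted conversions with SLAM-DUNK and deposited unnormalized counts for each 3′ end interval (all reads, reads with a T>C conversion, conversions, covered T). The submitters' processing notes name hg38. The version and settings of SLAM-DUNK, the strand setting, and whether molecular identifiers were collapsed are not given in the sources used here. No source states that replicates were separate cultures, so p-values measure only the spread between these libraries, which may be technical. The THZ531 dose is 100 nM in the methods and 150 nM in the series text.

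Of 104653 intervals, 92826 matched GENCODE v44. Within a gene the best-covered of overlapping intervals was kept, which left 57531 intervals in 31015 genes, and 3.53% of T>C reads were not matched. In 3697 genes an interval is shared with another gene on either strand. Mapped reads were 44185300 to 53592904 per library in the control and SRPIN340 groups, and as few as 35517462 in the other groups.

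T>C reads and all reads were tested with edgeR 4.0.16 under R 4.3.3 (filterByExpr, TMM factors and a robust quasi-likelihood fit of all 10 libraries, 5 residual degrees of freedom). The labelled share was tested as the interaction of treatment and read class with a library block. Named genes are those with the smallest p that passed the call, with at least 20 T>C reads (100 reads in total RNA) and no overlap between groups. They were 15 risen and 10 fallen in nascent RNA, 8 and 8 in total RNA, and 6 and 6 by share. Named without these limits on reads and overlap were up to 4 called members of each list and readout, and always SRPK1, SRPK2, SRPK3, SRSF1 and VEGFA. A few genes chosen this way are not reported here. List members beyond 4 are named to complete a count. The members and lists were chosen with earlier results of these data known. Alternatives were DESeq2 1.42.0, the 4 libraries alone, a plain sum of intervals, no filter, RLE factors, total-read scaling, a replicate block, removal of 348 genes with over 20% labelled share in both control libraries, leaving out each library and, chosen after seeing the data, a correction for T content. The procedure was run on simulated counts with the same spread for every gene. These held neither the difference between the control libraries nor the trend with T content, so they cannot show how the procedure handles them. Promoter windows are from RefSeq.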

Additional observations from a re-analysis of the deposited data

How the results depend on the processing

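None of the 84 gene results named by the rule changed direction under the alternatives tried. With the T content correction or without 1 of the 4 libraries, the median of 10 of 25 lists changed sign in nascent RNA and that of 12 in total RNA. Of the 84 gene results, 4 kept their call under every alternative (MNAT1 in nascent RNA and SLC7A11, PDK4 and IRS2 in total RNA). Counts of genes are given in the order nascent RNA called up and nascent RNA called down (84 and 19), total RNA called up and total RNA called down (267 and 21), and labelled share called up and labelled share called down (10 and 9). DESeq2 gave 67 and 12, 790 and 119, and 12 and 17. Without a low-count filter the counts were 129 and 27, 1000 and 211, and 27 and 20. The 4 libraries alone gave 30 and 2, 3 and 2, and 3 and 0. The plain sum of all intervals, which counts shared reads repeatedly and lowers the median prior degrees of freedom in nascent RNA from 53.7 to 6.69, gave 2 and 0, 10 and 0, and 1 and 0. Leaving out genes with a high labelled share in control cells gave 71 and 17, 172 and 30, and 5 and 6. The T content correction, chosen after the data were seen, gave 75 and 17 in nascent and 167 and 59 in total RNA. Leaving out each library gave 10 to 172 and 2 to 42, 3 to 1248 and 0 to 190, and 1 to 16 and 0 to 82. For SRPIN340 minus Endovion (2 and 4) the plain sum gave 0 and 1, the fit without high-share genes 1 risen gene, and leaving out a library 1 to 2 and 2 to 3. Deviations of same-numbered control and SRPIN340 libraries from their group means had r = -0.03 in nascent and -0.11 in total RNA. This cannot show whether such libraries shared a culture or a preparation, which no source used here states. With the replicate block the counts were 87 and 23, 90 and 6, and 12 and 9. RLE factors and total-read scaling stayed within 1.5 times. Where a change of count has no stated reason, the cause was not tested. With few T>C reads in a gene, small changes were not detectable at this depth.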
